A study of Mus musculus with 4 samples.

Results

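Effector T cells act on other cells through secreted and membrane-bound ligands, and 10 genes for such ligands are described here: the TNF family members Ltb, Lta, Tnf, Fasl and Tnfsf10, the cytokine gene Ifng, and the chemokine genes Ccl3, Ccl4, Ccl5 and Xcl1. They were taken by gene symbol from a table of 55401 genes, and all 10 were found. The values come from RNA sequencing of mouse P14 CD8+ T cells, whose transgenic T cell receptor recognises lymphocytic choriomeningitis virus (LCMV), taken from spleens of mice infected with LCMV Armstrong. All libraries came from transduced P14 cells. One group carried the empty control vector and the other carried a vector for overexpression of Hic1, a zinc finger transcriptional repressor, with 2 libraries per group (the titles name the vector pMIA). The labels of the samples give day 32 after infection and the text of the series gives day 7, and which one holds is not settled here. The sources used here do not give strain, age, the promoter of the vector or how many mice each library came from, so p-values measure only the spread between these samples.

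TNF family ligands work as trimers, and most are made as membrane proteins. Lymphotoxin beta, from Ltb, anchors lymphotoxin alpha, from Lta, at the cell surface in a heterotrimer that engages the lymphotoxin beta receptor, while lymphotoxin alpha alone is secreted and binds TNF receptors. Fas ligand and TRAIL, from Fasl and Tnfsf10, start death receptor signalling in target cells, interferon gamma activates macrophages and antigen presentation, and CCL3, CCL4, CCL5 and XCL1 attract other leukocytes. In CD8+ T cells many of these genes are switched on by antigen receptor signals, whereas Ccl5 RNA is held at a high level in effector and memory cells without restimulation.

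The empty vector libraries held 4017346 and 3941364 gene counts, fewer than the 7501285 and 8839317 of the libraries with the Hic1 vector. Hic1 itself had 3 and 5 counts with the empty vector and 314 and 161 with the Hic1 vector, which matches the labels, although its call was lost without empty vector replicate 1 (adjusted p = 0.108) and by limma voom (0.0784). CD8 T cell markers were present in each library (Cd8a at 665 to 876 CPM, the depth-scaled count), while Cd4 had at most 5 counts. Xist had 1885 and 3590 counts in the replicates numbered 1 against 0 and 3 in those numbered 2, and the Y-linked Eif2s3y had 0 against 396 and 951, so sex varied within both groups and the 2 libraries of a group did not come from the same single mouse. Differences between vectors were tested with edgeR's quasi-likelihood F test on all 11676 genes that passed a filter on low counts, with p-values adjusted by the Benjamini-Hochberg method over all of them, and a gene is said to rise or fall below only where the adjusted p was under 0.05. Of all genes tested, 1.82% were called, 84 higher (0.719%) and 129 lower (1.1%). With library sizes alone as the scaling, 70 were higher and 251 lower, and after removal of a GC trend 30 were higher and 72 lower. Without a low count filter the balance turned, with 461 higher and 358 lower, and with the replicate number as a block 378 were higher and 416 lower. For some lists below, a count at an unadjusted p under 0.05 by edgeR is given. The share over all genes tested was not counted at that threshold, so these counts have no background to be read against. In bulk RNA, fewer cells with a transcript and less transcript per cell cannot be told apart.

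Ccl5 was the most abundant of the 10 genes by far and Ltb was the only one that rose with the Hic1 vector. Of the 10, 9 passed the filter on low counts and Xcl1 did not. Of those 9, 1 rose, where 0.719% of all genes tested rose, none fell and 8 were not called. Their median log2 difference was -0.0060, beside 0.0087 over all genes tested, and 4 of the 9 were above 0. The groups did not overlap for Ltb and Ccl5, both higher with the Hic1 vector, where 26.5% of all genes tested were higher without overlap and 24.9% lower. Ltb was again the only member called by DESeq2 (0.701% of 31962 genes called) and by limma voom (1.04%). It was also the only one with DESeq2 size factors (1.39%), library sizes alone (2.75%) or a filter of 1 CPM in all libraries (2.64%). Ltb alone was called with the GC trend removed as well, without (0.874%) or with (4.96%) a replicate block. The same held on leaving out replicate 2 of the empty vector (2.45%) or of the Hic1 vector (1.34%). Ltb and Ccl5 were both called without a low count filter (2.56%), with the replicate block (6.8%) and without Hic1 vector replicate 1 (2.62%), and no member was called without empty vector replicate 1 (0.0619%).

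Levels were compared between genes as CPM per kilobase of exon, averaged over the 4 libraries. Ccl5 came first at 12260, followed by Ccl4 at 194, Ltb at 150, Fasl at 65.8, Ccl3 at 60.0, Ifng at 22.7, Tnfsf10 at 6.98, Tnf at 4.65, Lta at 1.301 and Xcl1 at 0.653. The ranges of neighbours in this order were separate for Ccl5 over Ccl4, for Ccl3 over Ifng, for Ifng over Tnfsf10 and for Tnf over Lta. Ccl4 lay above Ltb in 2 of 4 libraries, the empty vector ones, and below it in both Hic1 vector libraries. Fasl and Ccl3 also exchanged places between libraries, and the neighbours Ltb and Fasl, Tnfsf10 and Tnf, and Lta and Xcl1 kept their order in each library while their ranges overlapped. Ccl5 alone took 0.999% and 1.08% of all counts with the empty vector and 1.09% and 1.51% with the Hic1 vector.

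**Figure D1:**
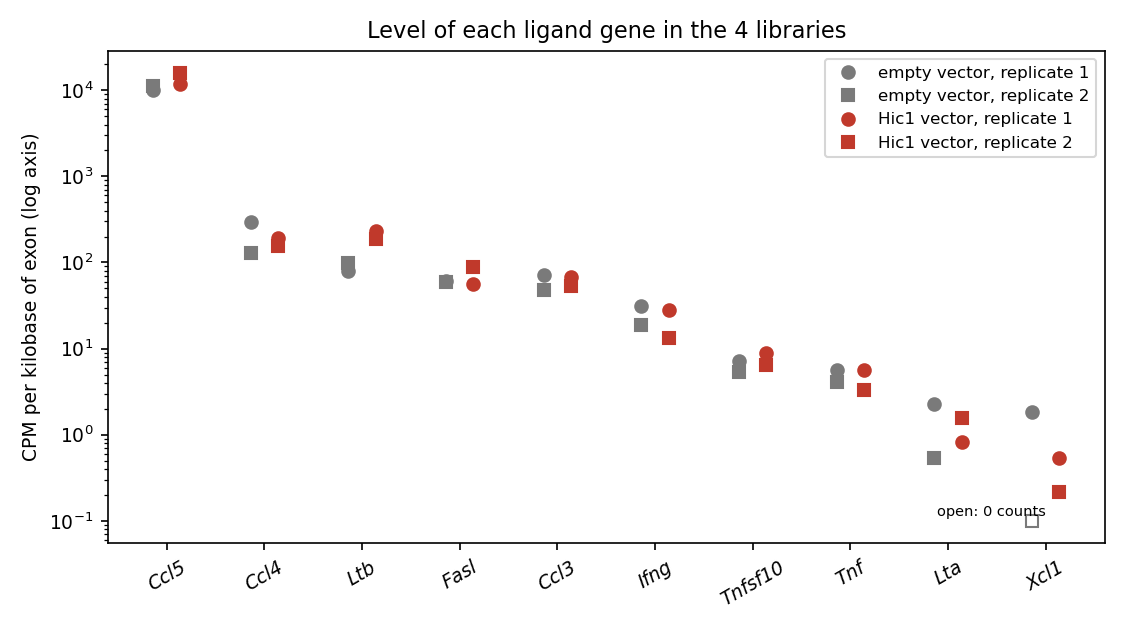
Level of the 10 ligand genes as CPM per kilobase of exon on a log axis, ordered by their mean, with 1 point per library, grey for the empty vector and red for the Hic1 vector, circles for replicate 1 and squares for replicate 2 (the open square marks 0 counts of Xcl1). Ccl5 lies far above the other genes, and only Ltb and Ccl5 have both red points above both grey points.

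Ltb, Tnf and Lta are neighbours on chromosome 17 (mm10, GENCODE M21). Ltb spans positions 35194439 to 35196320 on the plus strand, Tnf 35199381 to 35202007 and Lta 35203165 to 35205351, both on the minus strand. Tnf ends 3060 bases from Ltb and Lta lies a further 1157 bases beyond Tnf. No exon of the 3 genes shares bases with another gene of the table.

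Since these 3 genes adjoin and only Ltb was called, the sequence just upstream of each is shown for comparison, from RefSeq on GRCm38.p6 (8 of the 10 genes had an entry) and read 5′ to 3′ on the strand of the gene. Each stretch ends before the first annotated base of the gene in either RefSeq or GENCODE. Capitals mark GGGCA on either strand (TGCCC on the opposite one), which holds the GGCA core that Hic1 is known to bind.
Ltb, chr17:35194257-35194438, plus strand: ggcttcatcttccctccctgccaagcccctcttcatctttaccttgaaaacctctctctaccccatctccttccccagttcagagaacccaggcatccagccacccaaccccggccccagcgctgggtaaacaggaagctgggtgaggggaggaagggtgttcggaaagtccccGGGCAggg
Tnf, chr17:35202008-35202257, minus strand: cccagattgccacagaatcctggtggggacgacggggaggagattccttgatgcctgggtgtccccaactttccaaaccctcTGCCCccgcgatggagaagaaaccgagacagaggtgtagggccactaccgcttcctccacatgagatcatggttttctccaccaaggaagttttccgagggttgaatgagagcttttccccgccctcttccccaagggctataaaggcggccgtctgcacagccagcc
Lta, chr17:35205352-35205601, minus strand: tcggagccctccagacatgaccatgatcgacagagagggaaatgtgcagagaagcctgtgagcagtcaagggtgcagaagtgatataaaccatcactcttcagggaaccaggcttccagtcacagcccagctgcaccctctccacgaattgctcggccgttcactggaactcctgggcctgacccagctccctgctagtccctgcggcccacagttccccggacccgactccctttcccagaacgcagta
In the 250 bases before the RefSeq start, GGGCA occurred 3 times for Ltb (1 of them in the stretch shown), once for Tnf and not for Lta. Of the other 5 matched ligand genes, Tnfsf10 and Ifng, which were not called, held it once each and Fasl, Ccl3 and Xcl1 did not, and 47.2% of 27025 promoters of that length hold it on at least 1 strand. The NF-κB motif had 1 match before Ltb, which does not overlap a GGGCA match, and none before Tnf or Lta (4.78% of promoters). The forkhead motif GTAAACA likewise had 1 match before Ltb and none before Tnf or Lta (3.09% of promoters). These are matches of letters, and binding was not measured.

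Ltb rose 2.36-fold with the Hic1 vector. It had 501 and 598 counts with the empty vector and 2519 and 2515 counts with the Hic1 vector (replicates 1 and 2 in that order, here and below). Scaled for depth these were 121.6 and 149.4 CPM with the empty vector and 354.7 and 286.6 CPM with the Hic1 vector, so the lower Hic1 vector library was still well above the higher empty vector library. The means were 135.5 ± 19.7 and 320.6 ± 48.1 CPM (SD, n = 2 each). The log2 difference was 1.24 ± 0.16 (SE; 95% interval 0.88 to 1.60), and edgeR gave an adjusted p of 0.00855. It was 1.54 between the libraries numbered 1 and 0.94 between those numbered 2. Without empty vector replicate 1 the difference was 1.10 and was not called (adjusted p = 0.0666 by the same edgeR test), while it was called without any other single library. With the GC trend removed it was 1.02 and still called (Ltb transcripts have 61.0% GC).

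Tnf, the gene of tumour necrosis factor, was low and showed no detectable difference. It had 38 and 27 counts with the empty vector and 65 and 47 with the Hic1 vector, which is 9.22 and 6.75 CPM against 9.15 and 5.36 CPM. Hic1 vector replicate 2 lay below both empty vector libraries and replicate 1 between them, with a log2 difference of -0.14 (95% interval -1.05 to 0.77; adjusted p = 0.895 by edgeR). Lta was lower still, with 13 and 3 counts against 8 and 19. At 3.16 and 0.750 CPM against 1.13 and 2.17 CPM it moved in opposite directions within the 2 replicate numbers (log2 -1.49 and 1.53). Its 95% interval, -1.73 to 1.33, includes the size of the Ltb change, so a rise of Lta as large as that of Ltb was not excluded. The interval of Tnf ends below the Ltb estimate and the 2 intervals, 0.88 to 1.60 for Ltb and -1.05 to 0.77 for Tnf, do not overlap. The difference between the changes of these genes was not tested.

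Within each library, Ltb made up most of the combined signal per kilobase of the 3 neighbours. Its share was 91.0% and 95.5% with the empty vector and 97.3% and 97.5% with the Hic1 vector. The ratio of Ltb to Tnf per kilobase was 14.2 and 23.9 with the empty vector and 41.9 and 57.9 with the Hic1 vector, and did not overlap between the groups. The ratio of Ltb to Lta was 35.2 and 182 against 287 and 121, and it did overlap. Both ratios are free of library scaling, and neither was tested.

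**Figure D2:**
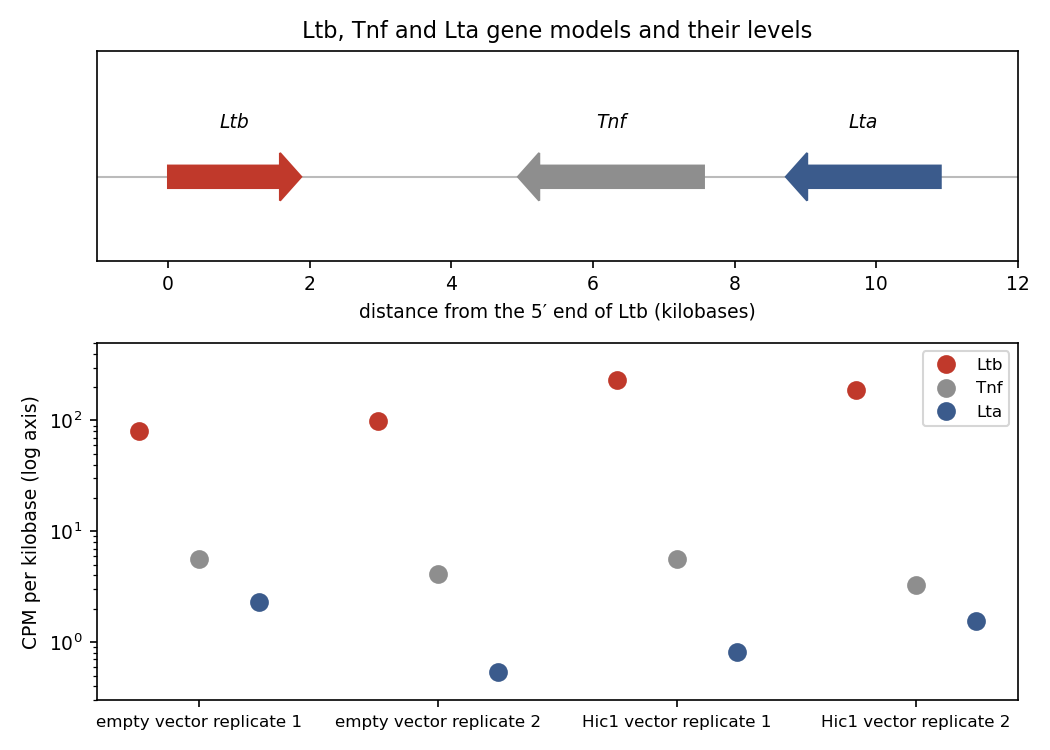
Top, the gene models of Ltb, Tnf and Lta drawn to scale as arrows in the direction of transcription, by distance from the 5′ end of Ltb in kilobases. Bottom, the level of each gene in the 4 libraries as CPM per kilobase on a log axis: Ltb is higher in both Hic1 vector libraries than in both empty vector libraries, and Tnf and Lta are not.

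Besides Tnf and Lta, 6 other tested genes lie within 50000 bases of Ltb, and edgeR called none of these 8 (3 had an unadjusted p under 0.05, and DESeq2 and limma voom called 0). Nfkbil1, on the far side of Lta, was at 8.50 and 11.0 CPM with the empty vector and 22.9 and 16.9 CPM with the Hic1 vector, a log2 difference of 1.00 ± 0.32 (SE) that was not called (adjusted p = 0.124 by edgeR). Ddx39b, an RNA helicase gene, was at 196 and 209 against 261 and 262 CPM (log2 0.37, adjusted p = 0.174 by edgeR). Prrc2a lay in the other direction, at 103 and 75.9 against 64.1 and 55.5 CPM (log2 -0.58, adjusted p = 0.134 by edgeR). The last 3, Bag6, Lst1 and Atp6v1g2, had log2 differences of -0.0093, 0.29 and -0.39.

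B cells also express Ltb, so their markers are given beside it. Of 15 B cell markers, 5 passed the filter and 1, Ighm, was called. Ighm, the immunoglobulin mu heavy chain gene, rose from 61.4 and 84.4 CPM to 237.9 and 197.1 CPM (log2 1.57, adjusted p = 0.00706 by edgeR). The summed level of all 15 markers was 89.1 and 114.9 CPM with the empty vector and 288 and 224 CPM with the Hic1 vector. Without Ighm the other 14 summed to 27.7 and 30.5 CPM against 50.4 and 26.4 CPM, so that sum overlapped between the groups. Cd79b and Cd79a, for the signalling chains of the B cell receptor, had 67 and 13 counts against 270 and 117 and 6 and 0 counts against 17 and 16, with log2 differences of 1.36 and 1.19 that were not called (adjusted p = 0.417 and 0.462 by edgeR). Of the 5 tested, 3 were above 0, with a median log2 difference of 1.19. Cd74 and Igkc were below 0, with log2 differences of -0.80 and -0.83 (adjusted p = 0.4029 and 0.4475 by edgeR). The defining markers Ms4a1, Pax5 and Ighd had at most 2, 5 and 1 counts in any library, and the light chain gene Igkc was at 3.40 and 7.00 CPM against 1.97 and 3.53 CPM. Whether B cell RNA had a part in the Ltb values was not tested.

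The genes whose levels ran most like Ltb over the 4 libraries were Gsn, Rasl11a, Myc, Nrp2 and Ly6g5b. They had the smallest distances to Ltb in centred log2 CPM among 8644 protein-coding genes other than predicted models, from 0.132 to 0.165. Since they were chosen by the same 4 values that hold the vector difference, log2 differences near that of Ltb follow from the choice. The differences and adjusted p-values below describe these genes and are no separate result. Gsn, which encodes the actin-severing protein gelsolin, was at 27.7 and 33.2 CPM with the empty vector and 71.9 and 64.6 CPM with the Hic1 vector (log2 1.16, adjusted p = 0.0236 by edgeR). Myc, a transcription factor gene of growth and proliferation, was at 17.2 and 19.5 against 51.8 and 42.2 CPM (log2 1.34, adjusted p = 0.0239 by edgeR). Both lost their call without empty vector replicate 1 (adjusted p = 0.176 for each), and Gsn also after removal of the GC trend (0.0546). The remaining 3 were not called.

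The death ligand genes were expressed in each library without a called change. Fasl (chromosome 1, positions 161780689 to 161788495, minus strand) had 483 and 458 counts with the empty vector and 765 and 1498 with the Hic1 vector. Its levels were 117.2 and 114.4 CPM against 107.7 and 170.7 CPM, so Hic1 vector replicate 1 lay below and replicate 2 above both empty vector libraries. The log2 difference was 0.27 (95% interval -0.19 to 0.72; adjusted p = 0.524 by edgeR), and it was -0.10 without Hic1 vector replicate 2. Tnfsf10 (chromosome 3, positions 27317028 to 27342427, plus strand) had 156 and 112 counts against 336 and 298. At 37.9 and 28.0 CPM against 47.3 and 33.96 CPM it was higher with the Hic1 vector within both replicate numbers (log2 0.32 and 0.28), but the groups overlapped and it was not called (log2 0.30, 95% interval -0.25 to 0.84, adjusted p = 0.562 by edgeR).

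Ifng (chromosome 10, positions 118441046 to 118445892, plus strand) varied more between replicates than between vectors. It had 165 and 97 counts with the empty vector and 255 and 151 with the Hic1 vector, or 40.0 and 24.2 CPM against 35.9 and 17.2 CPM. The libraries numbered 1 were high and those numbered 2 low with both vectors. The log2 difference was -0.28 (95% interval -1.11 to 0.55; adjusted p = 0.738 by edgeR). Of its 1295 exon bases, 336 are shared with Gm49751, a model on the same strand, whose counts were 62 and 34 against 88 and 55. How the authors treated reads in shared bases is not given in the sources used here, so the level of Ifng is uncertain. Gm49751 held 0.345 to 0.376 counts for each Ifng count in the 4 libraries, and the sum of both was 55.1 and 32.7 CPM against 48.3 and 23.5 CPM.

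The chemokine genes Ccl5, Ccl3 and Ccl4 lie in one cluster on chromosome 11, and none was called. Ccl5 (positions 83525778 to 83530518, minus strand) had 40120 and 42758 counts with the empty vector and 81480 and 133158 with the Hic1 vector. Its levels were 9738 and 10680 CPM against 11470 and 15170 CPM, with both Hic1 vector libraries above both empty vector libraries. The log2 difference was 0.38 ± 0.13 (SE; unadjusted 95% interval 0.087 to 0.68), which was not called over all genes (adjusted p = 0.159 by edgeR). Without Hic1 vector replicate 1 it was 0.58 and was called (adjusted p = 0.0362 by edgeR), and without Hic1 vector replicate 2 it was 0.17 (adjusted p = 0.667).

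Ccl3 (positions 83647844 to 83649355, minus strand) and Ccl4 (83662584 to 83664683, plus strand) encode the closely related ligands MIP-1 alpha and MIP-1 beta, and stand 13228 bases apart. Ccl3 had 227 and 148 counts with the empty vector and 365 and 355 with the Hic1 vector, or 55.1 and 37.0 CPM against 51.4 and 40.5 CPM. Both Hic1 vector libraries thus fell between the empty vector libraries, with a log2 difference of -0.0060 (95% interval -0.52 to 0.51; adjusted p = 0.994 by edgeR). Ccl4 had 805 and 343 counts against 908 and 910, or 195.4 and 85.7 CPM against 127.8 and 103.7 CPM. Here too the Hic1 vector libraries lay between the empty vector libraries, which differed more than 2-fold from each other, and the log2 difference was -0.28 (95% interval -1.19 to 0.63; adjusted p = 0.747 by edgeR). Without empty vector replicate 1 it was 0.43 and without empty vector replicate 2 it was -0.77 (adjusted p = 0.526 and 0.0628 by edgeR). The ratio of Ccl4 to Ccl3 per kilobase was 4.12 and 2.69 with the empty vector and 2.89 and 2.98 with the Hic1 vector. Of the combined signal per kilobase of the 3 chemokine genes, Ccl5 made up 96.5% to 98.7% in each library.

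Xcl1 (chromosome 1, positions 164931644 to 164935527, minus strand), the gene of lymphotactin, was near the limit of detection. It had 4 and 0 counts with the empty vector and 2 and 1 with the Hic1 vector. A count of 0 among 3941364 allows a level of up to 0.761 CPM (3 counts), and the other libraries were at or close to such limits, so no fold is given. That limit covers counting error alone, since PCR copies of a molecule could not be told apart.

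**Figure D3:**
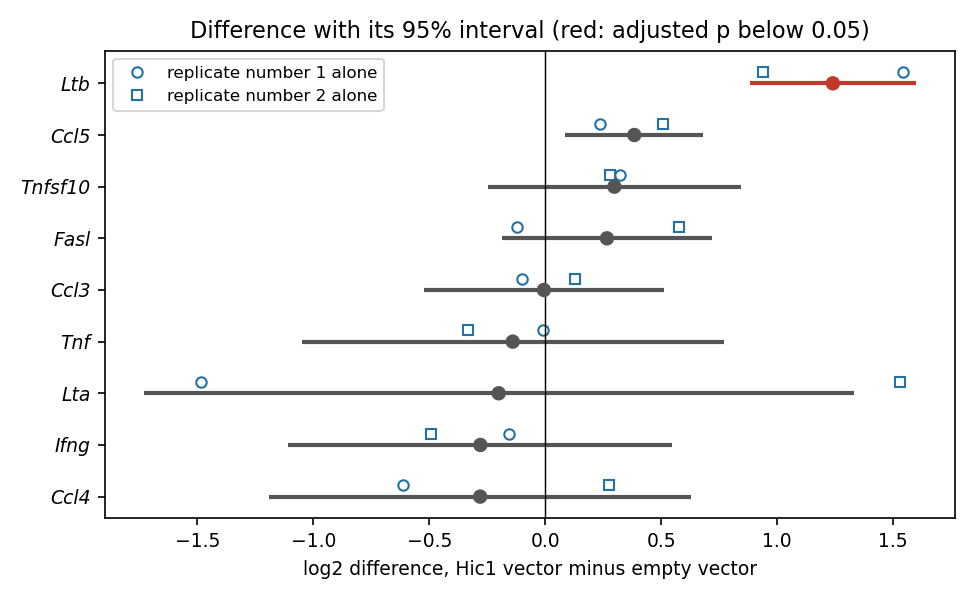
Log2 difference between the Hic1 vector and the empty vector for the 9 tested ligand genes, with the 95% interval from the fit as a bar (unadjusted) and the differences within replicate numbers 1 and 2 as open blue circles and squares. The interval of Ltb, in red, runs from 0.88 to 1.60, that of Ccl5 from 0.087 to 0.68, and the other 7 include 0.

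Several ligand genes followed the replicate number. Tnf, Ifng, Ccl3, Ccl4 and Tnfsf10 were each higher in the library numbered 1 than in the one numbered 2 with both vectors, which is 5 of the 9 tested (55.6%). Over all genes tested, 28.8% were higher in number 1 with both vectors. Ccl5 was the only member that was higher in number 2 with both. These are values without a test. Xist had 1885 and 3590 counts in the libraries numbered 1 and 0 and 3 in those numbered 2, and the part of sex in these values was not tested.

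Genes for the receptors of these ligands were not called. Of 13 listed, 9 passed the filter, edgeR called none (0 had an unadjusted p under 0.05, and DESeq2 and limma voom called 0), and the median log2 difference was 0.14. Ifngr1, a chain of the interferon gamma receptor, was the most abundant of the 9 by CPM, at 531.8 and 607.3 against 647.9 and 707.2 CPM (log2 0.25, adjusted p = 0.317 by edgeR). Tnfrsf1b and Tnfrsf1a, for the 2 TNF receptors, had log2 differences of 0.23 and 0.25. Xcr1, the receptor gene for XCL1, was at 11.9 and 12.5 against 20.4 and 15.8 CPM (log2 0.56, adjusted p = 0.349). Ltbr, the receptor gene for the lymphotoxin heterotrimer, had 0 counts in each library.

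Most other ligand genes of these families were too low to test, and neither DESeq2 nor limma voom called any that edgeR did not. Of 13 other TNF family ligands 4 passed the filter and none was called (0 at an unadjusted p under 0.05 by edgeR, median log2 difference -0.28). They were Cd40lg, Tnfsf9, Tnfsf8 and Tnfsf14 (LIGHT, another ligand of the lymphotoxin beta receptor), the last at 31.3 and 59.2 against 29.3 and 50.9 CPM. Tnfsf12 and Tnfsf13 are listed at 0 in each library, and 48.3% and 60.0% of their exon bases are shared with other gene models. Of 31 other cytokines 7 passed and none was called (3 at an unadjusted p under 0.05, median 0.34). Among them were Mif at 71.1 and 65.5 against 93.3 and 103 CPM (log2 0.52, adjusted p = 0.118 by edgeR) and Il15 at 3.40 and 2.75 against 8.45 and 6.61 CPM (log2 1.20, adjusted p = 0.179 by edgeR). Flt3l and Il16, which share 22.1% and 17.4% of their exon bases with other models, had log2 differences of 0.55 and 0.34. The remaining tested cytokines, Tgfb1, Csf1 and Osm, were below 0, with log2 differences of -0.82, -1.05 and -0.46. Il2, the T cell growth factor gene, had at most 4 counts. Of 31 other chemokines 4 passed and none was called (1 at an unadjusted p under 0.05, median -0.24). Ccl9, in the same cluster as Ccl5, was at 16.7 and 13.7 against 20.3 and 34.9 CPM (log2 0.84, adjusted p = 0.176 by edgeR), while Ccl27a, Ccl25 and Ccl6 had log2 differences of -0.78, -0.49 and 0.013.

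Among transcription factors known to act on these ligand genes, Tcf7 rose and Tbx21 and Runx3 fell. Of 36 listed, 33 passed the filter, 1 rose, 2 fell and 30 were not called, with a median log2 difference of 0.036. Of all genes tested, 0.719% rose and 1.1% fell. By edgeR 14 of the 33 had an unadjusted p under 0.05, a count with no share over all genes to be read against. Without overlap, 11 of the 33 were higher and 10 lower, beside 26.5% and 24.9% of all genes tested. Tcf7, which encodes TCF-1 of memory and stem-like T cells, went from 25.5 and 20.0 CPM to 97.9 and 84.0 CPM (adjusted p = 0.00423 by edgeR). Tbx21 encodes T-bet, an activator of Ifng, and was at 510 and 659 CPM with the empty vector against 370 and 281 CPM (log2 -0.84, adjusted p = 0.043 by edgeR). Runx3, which also acts on Ifng, was at 264 and 209 against 140 and 150 CPM (log2 -0.71, adjusted p = 0.0475 by edgeR). Junb, an AP-1 subunit gene, was at 191 and 159 against 329 and 253 CPM and missed the threshold (log2 0.73, adjusted p = 0.0503 by edgeR), while DESeq2 (0.0219) and edgeR with the replicate block (0.00738) or with a filter of 1 CPM in all libraries (0.0413) called it. Tcf7 was called without any single library. Tbx21 was called only without Hic1 vector replicate 1 and Runx3 only without empty vector replicate 2, with adjusted p-values of 0.0693 to 0.102 and 0.0835 to 0.358 in the other omissions. Runx3 also lost its call by limma voom (0.0623) and with DESeq2 size factors (0.0505).

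By edgeR no gene for RNA decay or for ligand processing and release was called. DESeq2 called 1, Adam10, and limma voom called 0. Other edgeR settings called Adam10 with library sizes alone (adjusted p = 0.033), without a low count filter (0.0046) and with a filter of 1 CPM in all libraries (0.0412), and called Furin (0.00022) and Sppl2b (0.0126) without a low count filter. With the replicate block, whose numbers also carry the sex markers, edgeR called Adam10 (0.0138), Furin (0.0333) and Sppl2b (0.0453). All 12 genes for factors that bind cytokine RNA and set its decay passed the filter, 2 with an unadjusted p under 0.05 and with a median log2 difference of -0.31, and 3 of the 12 were above 0. Zfp36l1 and Zfp36, from the tristetraprolin family, were at 41.0 and 45.2 against 58.2 and 66.4 CPM and at 43.7 and 49.5 against 55.3 and 63.8 CPM (adjusted p = 0.171 and 0.354 by edgeR). Hnrnpd and Tial1 had log2 differences of -0.49 and -0.54. Of 20 processing and release genes 16 passed, 9 with an unadjusted p under 0.05 and with a median of -0.057. For both lists, the share of all genes tested under that unadjusted p was not counted. Adam10, a membrane protease that sheds Fas ligand, was at 273 and 201 against 150 and 139 CPM (log2 -0.71, adjusted p = 0.0569 by edgeR). Furin, a proprotein convertase gene, was at 26.5 and 25.7 against 72.7 and 37.7 CPM (log2 1.07, adjusted p = 0.0925 by edgeR). Sppl2b, for a protease that cleaves TNF in the membrane, and Stxbp2, for a factor of granule release, had log2 differences of 0.78 and 0.46.

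**Figure D4:**
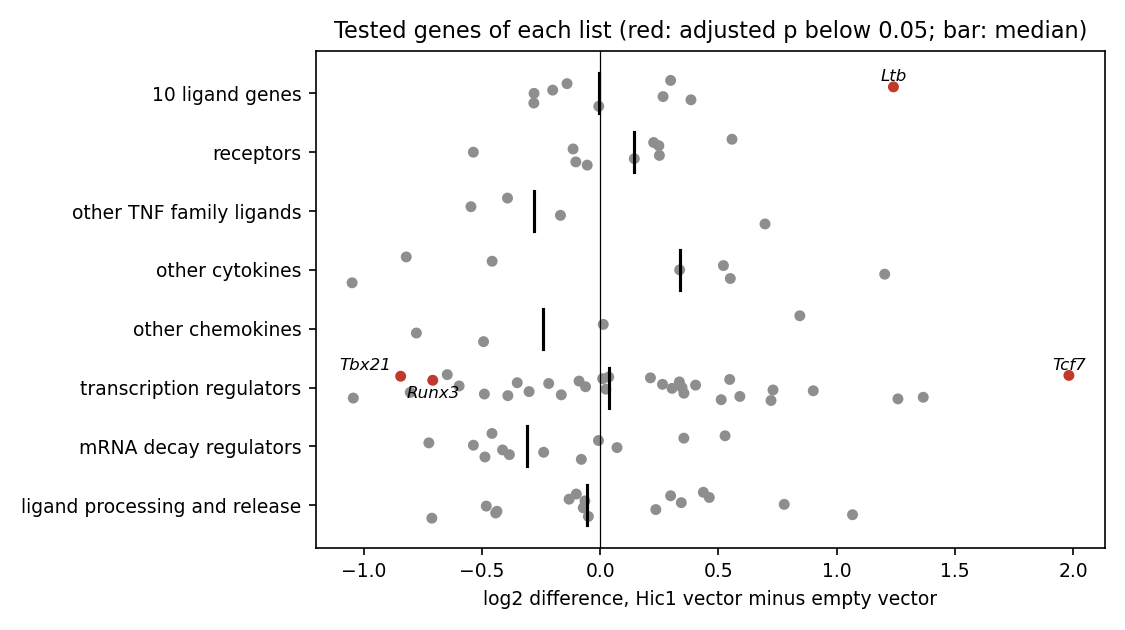
Log2 difference between the Hic1 vector and the empty vector for each tested gene of the 10 ligand genes and of 7 related lists, 1 point per gene, with the median of each list as a black bar. The called genes, in red, are Ltb, Tcf7, Tbx21 and Runx3.

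Among markers of other cell types, Ighm and Klra8 were called. Of 15 myeloid markers 7 passed the filter and none was called by edgeR, DESeq2 or limma voom (2 at an unadjusted p under 0.05), with a summed level of 197 and 213 CPM against 183 and 232 CPM, and Lyz2, a defining marker, had 0, 0, 0 and 13 counts. Most of that sum came from Cst3, at 129.6 and 130.2 against 117.3 and 159 CPM. The lowest p-values among the myeloid markers belonged to Itgam (68.7% of its exon bases shared with another model), Fcgr3, Cd68 and Csf1r. Their log2 differences were -0.88, 1.71, 0.48 and -0.56, with adjusted p-values from edgeR of 0.1 to 0.812. Fcgr3 had 4 and 8 counts against 40 and 49. Of the 7 tested, 4 were above 0. Of 7 NK cell markers 6 passed and Klra8, a gene of the Ly49 family with close paralogs, was called higher (2 and 1 counts against 78 and 48), a call lost on leaving out replicate 1 of the empty vector or of the Hic1 vector (adjusted p = 0.128 and 0.0749 by edgeR) and by limma voom (0.0907). Ncr1, the defining NK marker, had at most 2 counts, and 5 of the 6 tested had an unadjusted p under 0.05 by edgeR, 3 of them with higher levels with the Hic1 vector. Klra4 had 38 and 1 counts against 308 and 401 (log2 3.13, adjusted p = 0.194 by edgeR). Klrb1c was at 29.4 and 43.7 against 58.6 and 70.8 CPM (log2 0.82, adjusted p = 0.0885 by edgeR). Cma1 lay in the other direction, with 30 and 24 counts against 2 and 14 (log2 -2.42, adjusted p = 0.0734 by edgeR). The summed level of the 7 NK markers was 7306 and 7124 CPM with the empty vector against 5261 and 6111 CPM, nearly all of it from Gzma, a granzyme gene that effector CD8+ T cells also express, at 7251 and 7061 against 5136 and 5976 CPM (log2 -0.37, adjusted p = 0.108 by edgeR). Of 6 CD4 T cell markers 4 passed and none was called by these tools (0 at an unadjusted p under 0.05). All 10 CD8 T cell markers passed, each with a log2 difference above 0 (median 0.29), where 5946 of all 11676 genes tested were above 0. Of the 10, 7 were higher without overlap, beside 26.5% of all genes tested, and 5 had an unadjusted p under 0.05 by edgeR. The counts at an unadjusted p for these marker lists have no share over all genes to be read against. Zap70 rose (log2 0.66, adjusted p = 0.043 by edgeR), a call kept in only 1 of the single omissions, that of Hic1 vector replicate 1, and lost by limma voom (0.0541), with library sizes alone (0.0612) and with the GC trend removed (0.15). The part of these markers in the ligand values was not tested.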

How the data were processed

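RNA of 1000 resorted cells per sample, after a first sort of 5000, was made into Smart-seq2 libraries from 5 µl of lysate with 12 cycles of PCR, per the labels' protocols. The authors deposited whole-number read counts per gene. The submitters' processing notes name mm10 as the build and list STAR 2.5.2b, Trimmomatic 0.38, DESeq2 1.3.2 and featureCounts 1.5.3, with no role stated. The sources used here give neither strand setting nor annotation release. The deposited normalized signal equalled the count divided by 1 factor per library, plus 1 (relative tolerance 0.001), and was not used further.

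Gene models came from GENCODE M21, where 98.1% of identifiers matched with their version. Genes were kept by filterByExpr (minimum count 10, total 15), scaled by TMM and fitted by group in edgeR 4.0.16 (robust, prior count 2), using R 4.3.3. Calls were made at an adjusted p below 0.05. Standard errors and 95% intervals were derived from the F statistic and are unadjusted. The fit was first tested on simulated data. It recovered 52 of 108 genes given a log2 change of 1 and 78 of 92 given a change of 2. There were 8 false calls over 11676 genes. Alternatives used DESeq2 1.42.0, limma 3.58.1 (voom), other scalings and filters, GC correction (loess span 0.3), a replicate block and single omissions. DESeq2 was run on all genes with any count. The members, lists and tests were chosen with earlier results of these data known. Named genes are the members, Hic1, called genes and up to 4 of lowest p per list, and 5 genes nearest to Ltb with at least 5 CPM. Neighbours by position, further marker genes and genes singled out for being at or near 0 were added afterwards, as were Il2, Cd4, Xist and Eif2s3y.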

Additional observations from a re-analysis of the deposited data

How the results depend on the processing

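Ltb stayed above 0 in all 13 alternatives and was called in all but 1, the omission of empty vector replicate 1, with log2 differences of 1.08 to 1.39 when 1 library was left out. The number of genes called over all genes moved from 213 to 121 by limma voom, 321 with library sizes alone, 819 without a low count filter, 794 with the replicate block, 102 with the GC trend removed and 579 with both the GC trend removed and the replicate block. It was 8 to 318 when 1 library was left out, the 8 without empty vector replicate 1. The number of ligand genes called moved from 1 to 2 without a low count filter and with the replicate block, the second gene being Ccl5 in both, and was 0 to 2 when 1 library was left out. The labels do not say that a replicate number marks a shared animal. The deviations of the libraries numbered 1 from their group means correlated at 0.253 over genes, and with the replicate block Ccl5 had an adjusted p of 0.033 by edgeR. Of the other named genes, Junb, Adam10, Furin, Sppl2b, Cd79b (0.0204), Klrb1c (0.0221), Gzma (0.0362), Cma1 (0.0445), Trac (0.0369), Cd3g (0.0483) and Lck (0.0254) were also called under the block. Directions of uncalled genes turned, with these ranges over the single omissions: Lta -0.83 to 0.90, Tnf -0.54 to 0.19, Fasl -0.10 to 0.56, Ifng -0.88 to 0.16, Ccl3 -0.28 to 0.31, Ccl4 -0.77 to 0.43, Cd40lg -0.21 to 1.26, Tnfsf14 -0.62 to 0.35, Ccl25 -0.995 to 0.15, Ccl6 -0.80 to 0.52 and Csf1r -2.85 to 0.33. Ccl3 was also above 0 by DESeq2 (0.0051), without a filter (0.057), with the replicate block (0.011), with the GC trend removed (0.084) and with both (0.099). Ccl6 was also below 0 by limma voom (-0.063), with library sizes alone (-0.046) and with the replicate block (-0.075). Causes were not tested. Lta gave no value with a filter of 1 CPM in all libraries. Xcl1 gave one only by DESeq2 and by edgeR without a filter. Low counts limit Lta and Xcl1 most.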
